A study of Mus musculus with 98 samples.

Results

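The comparison set RAG breaks at the Jk1 segment of the immunoglobulin kappa locus against RAG breaks at a chromosomal recombination substrate, in mouse cells that lacked DNA ligase IV and no other repair factor named in the labels. Its members were the 4 deposited tables of RAG end structures from Lig4-/- line A and line B, chosen by genotype, line and break from the labels, of 17 distinct tables in the series. They held 3032 of the 13564 listed end structures and 1078884 of the 5177780 reads. The assay, hairpin capture of DNA end structures (HCoDES), uses a single-stranded DNA ligase to connect the strands of each broken end as a hairpin, so that sequencing across the hairpin shows where each strand stopped. The cells were Abelson kinase-transformed pre-B cells arrested in G1, and both sites were sampled at 48 h in sequencing set 4.

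The groups were Jk1 in Lig4-/- line A, Jk1 in Lig4-/- line B, the substrate in Lig4-/- line A and the substrate in Lig4-/- line B. Each table stood for 3 libraries, 12 in all, and was read as their pool, so the cell line was the replicate and no spread between libraries could be computed. The labels name the lines A and B with the further tags CJ 1 and CJ 7, and the titles of line B libraries carry an unexplained tag, shNT, that those of line A do not. That tag cannot be told apart from the line. The labels do not say where the substrate is integrated or what sequence it carries. A second deposited Jk1 table of line B held the same values and was used once.

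As background, RAG (the proteins RAG1 and RAG2) cuts between a gene segment and its recombination signal sequence. The cut leaves a coding end closed as a hairpin and a blunt signal end. The nuclease Artemis, with DNA-PKcs, opens the coding end hairpin, often with a short 3' overhang, and DNA ligase IV with XRCC4 then joins coding ends to each other and signal ends to each other. Without ligase IV the ends stay unjoined, and nucleases can shorten either strand. Jk1 (gene Igkj1) is a joining segment of the kappa light chain locus, which pre-B cells rearrange. The tables do not say whether the captured ends were coding or signal ends. A hairpin that was still closed could be listed as an end without loss on either strand, but the tables do not define the break.

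An end structure here is the pair of places where the 5'-ending and the 3'-ending strand stopped. Loss in nucleotides (nt) was the deposited position minus 2, the lowest position in the tables, because the tables do not define the break. A structure is written as loss from the 5'-ending strand over loss from the 3'-ending strand, so 4/0 is a 3' overhang of 4 nt and 4/4 is a blunt end. The listed positions did not reach equally far at the sites. The largest 5'-strand loss was 181 and 171 nt at Jk1 in lines A and B, and 206 and 207 nt at the substrate. All values below are therefore shares of reads with a 5'-strand loss of 171 nt or less. That window held 315257 and 304805 reads at Jk1 in lines A and B, and 319569 and 126598 reads at the substrate. It held 739 and 678 structures at Jk1, against 846 and 680 at the substrate. The PCR reads carry no molecular identifiers and may repeat a molecule, so the exact Clopper-Pearson 95% intervals cover counting error only.

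The position at which the 5'-ending strand most often stopped differed between the sites and was the same in both lines. At Jk1 a loss of 4 nt held 40.4% of reads in line A and 30.2% in line B. At the substrate the same loss of 4 nt held 0.969% and 0.737% of reads. The substrate instead had its peak at a loss of 2 nt, which held 0.675% and 0.252% of reads at Jk1, against 20.01% and 19.4% at the substrate. At both positions the tables of 1 site lay together and far from those of the other.

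Several smaller 5'-strand peaks near the break also differed between the sites, while losses of 0 and 3 nt were frequent at both. No loss held 5.16% and 3.03% of reads at Jk1, against 7.49% and 6.18% at the substrate, and a loss of 3 nt held 3.83% and 2.37%, against 2.80% and 2.57%. A loss of 6 nt held 10.3% and 5.37% of reads at Jk1, against 0.671% and 0.487% at the substrate. A loss of 7 nt held 0.781% and 0.551% at Jk1, against 4.18% and 4.77% at the substrate. A loss of 9 nt held 1.07% and 1.06% at Jk1, against 4.82% and 4.30% at the substrate. Of the 10 positions with 0 to 9 nt lost, 1, 4 and 6 nt were at least 2-fold higher at Jk1 in every pair of tables, and 2, 7, 8 and 9 nt were at least 2-fold lower. Over all losses, 53 of 150 5'-strand positions with a mean share of 0.05% or more were at least 2-fold apart in the same direction in all 4 pairs of a Jk1 and a substrate table (35.3%), 27 higher (18%) and 26 lower (17.3%) at Jk1. Near the break the count was thus 7 of 10 positions, and for losses of 10 nt or more 46 of 140. These counts describe the 4 tables, and single positions were not tested. A loss of 10 nt was nearly level between the sites, at 2.52% and 1.81% at Jk1 and 2.59% and 2.25% at the substrate.

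**Figure D1:**
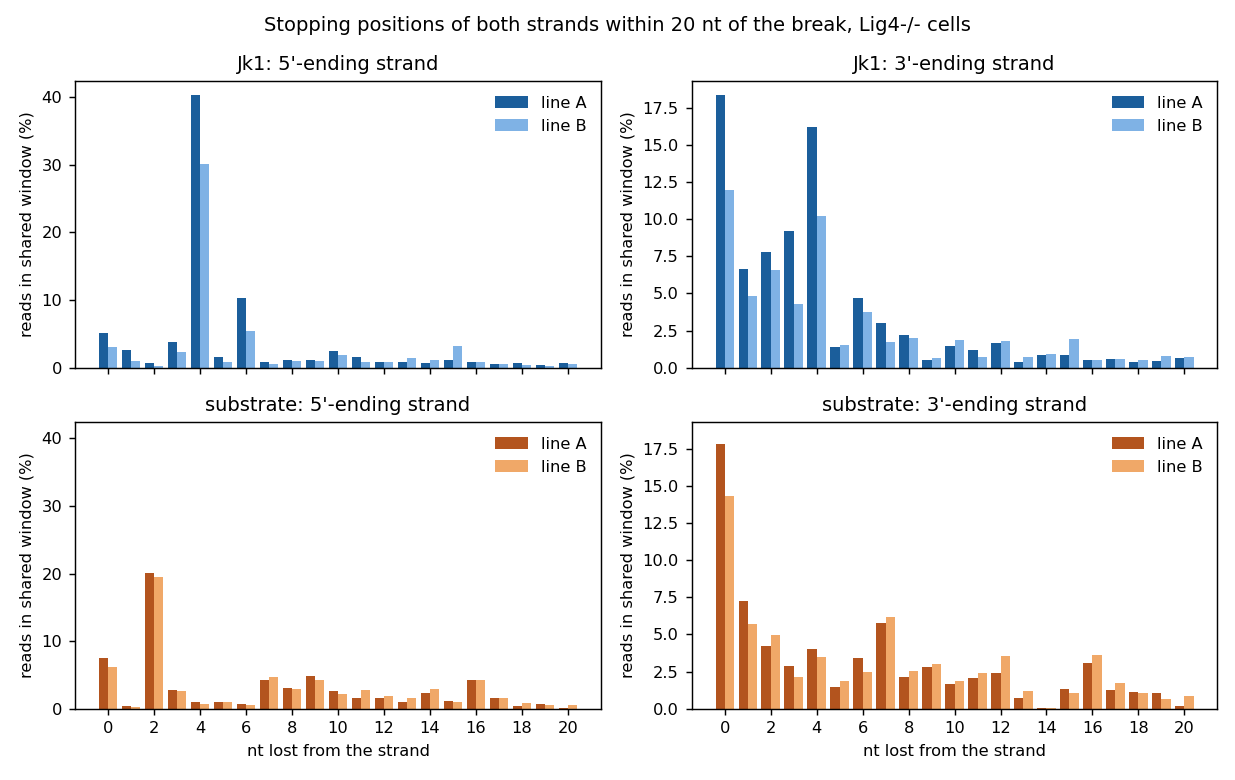
Share of reads in the shared window (%) by nt lost, from 0 to 20, from the 5'-ending strand (left column) and the 3'-ending strand (right column), at Jk1 (top) and the substrate (bottom), with 1 bar per line. The 5'-strand peak is at 4 nt at Jk1 (40.4% and 30.2%) and at 2 nt at the substrate (20.01% and 19.4%), while the 3'-ending strand has its highest bar at no loss in all 4 tables.

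The 3'-ending strand was more alike between the sites. It had lost nothing in 18.4% and 11.9% of reads at Jk1, against 17.8% and 14.3% at the substrate, a difference that changed sign between the lines. One nucleotide was missing in 6.66% and 4.85% of reads at Jk1, against 7.27% and 5.70% at the substrate. The sites parted at the next positions. A 3'-strand loss of 3 nt held 9.19% and 4.28% at Jk1, against 2.91% and 2.16% at the substrate. A loss of 4 nt held 16.2% and 10.2% at Jk1, against 4.01% and 3.47% at the substrate. A loss of 7 nt held 2.99% and 1.71% at Jk1, against 5.76% and 6.18% at the substrate. A loss of 16 nt held 0.496% and 0.541% at Jk1, against 3.06% and 3.62% at the substrate. At each of these 4 positions both Jk1 tables lay on the same side of both substrate tables.

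How alike whole distributions were can be given as their overlap, the sum over positions of the lower of both shares, which is 100% for identical distributions. For 5'-strand positions the overlap was 33.8% between Jk1 and the substrate of line A and 35.0% in line B. It was 70.3% between the lines at Jk1 and 78.3% between the lines at the substrate. For 3'-strand positions the overlap between sites was 64.2% in line A and 60.1% in line B, against 71.3% between lines at Jk1 and 73.7% at the substrate. For both strands the overlap between sites was thus below that between lines, and the gap was smaller for the 3'-ending strand. This contrast holds with loss counted from the lowest listed position at both sites. The shift of the substrate against Jk1, given below, was not computed for 3'-strand positions. Whether the contrast depends on the break position was therefore not tested. All overlaps in this paragraph are descriptions of 4 tables and carry no p-value.

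The pairs of positions, that is the structures themselves, separated the sites most. Among ends with under 10 nt lost from the 5'-ending strand, called near ends here, the structures of Jk1 and the substrate overlapped by 16.1% in line A and 14.4% in line B. The lines overlapped by 83.9% at Jk1 and by 84.3% at the substrate. Over all ends the overlap between sites was 15.04% and 12.0%, against 58.1% between lines at Jk1 and 57.6% at the substrate. Because the break position is not defined in the tables, the substrate was also shifted against Jk1 by up to 10 nt in each direction, an alternative chosen after seeing the data. The best shift, 2 nt, brought both 5'-strand peaks together. It raised the overlap of structures to 22.1% in line A and 22.0% in line B and that of 5'-strand positions to 46.3% and 49.2%, still below the overlap between lines at either site.

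At Jk1 the 5' end at 4 nt was combined with almost any 3' end nearby. The blunt end 4/4 held 12.1% and 7.49% of reads at Jk1, against 0.245% and 0.224% at the substrate. The 4-nt 3' overhang 4/0 held 9.66% and 8.25% at Jk1, against 0.209% and 0.172% at the substrate. Both were the leading structures of Jk1, in opposite order in the lines, and both were rare at the substrate. The 3-nt 3' overhang 4/1 held 4.47% and 3.79% at Jk1, and the 2-nt 3' overhang 4/2 held 5.11% and 4.89%. Neither was listed in a substrate table, and since the tables list structures with 2 reads or more, no lower bound on the fold is given. The 1-nt 3' overhang 4/3 held 6.29% and 3.49% at Jk1, against 0.301% and 0.0521% at the substrate. The 5' overhangs on the same 5' end, 4/6 and 4/8, held 1.13% and 1.15%, and 1.03% and 1.04%, at Jk1 and were not listed at the substrate. The second Jk1 peak, at 6 nt, had different leading structures in the lines. The 6-nt 3' overhang 6/0 led in line A and held 3.01% and 0.329% at Jk1, against 0.0923% and 0.00158% at the substrate. The 2-nt 3' overhang 6/4 led in line B and held 2.53% and 1.79% at Jk1, against 0.0764% and 0.00158% at the substrate.

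The substrate had the same kind of ladder, set on a 5' end at 2 nt. The 2-nt 3' overhang 2/0 held no listed read at Jk1, against 9.38% and 8.16% at the substrate. The 1-nt 3' overhang 2/1 held 0.448% and 0.131% at Jk1, against 5.23% and 4.13% at the substrate. The blunt end 2/2 was not listed at Jk1 and held 2.60% and 3.72% at the substrate. In this ladder 2/0 was first, then 2/1, then 2/2, in both lines. The 2-nt 5' overhang 2/4 was not listed at Jk1 and held 1.48% and 1.62% at the substrate. The blunt end 7/7 held 0.219% and 0.0315% at Jk1, against 1.96% and 2.38% at the substrate. The 3-nt 3' overhang 9/6 held 0.0266% and 0.167% at Jk1, against 2.10% and 1.08% at the substrate.

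**Figure D2:**
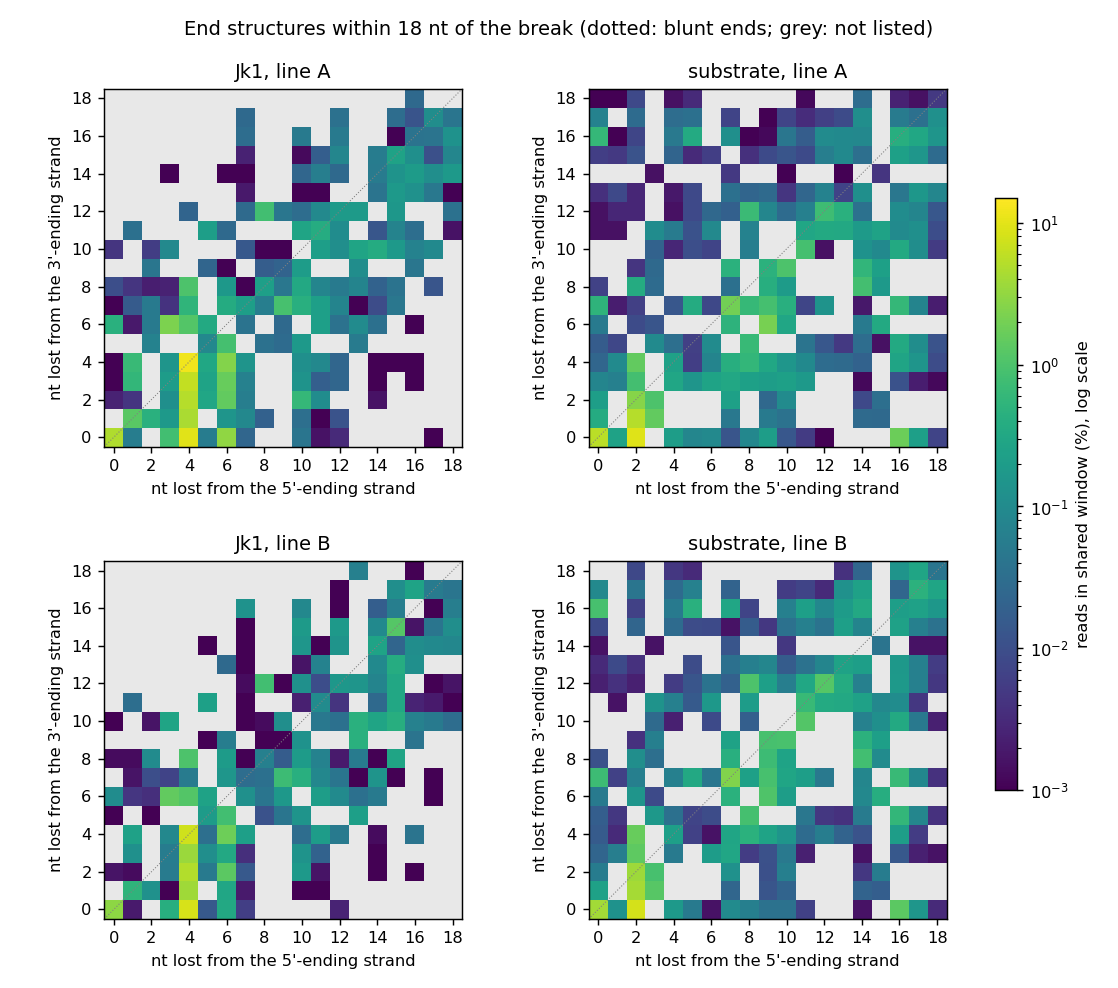
Each cell is 1 end structure, placed by nt lost from the 5'-ending strand (x axis) and the 3'-ending strand (y axis) from 0 to 18 nt, coloured by its share of reads in the shared window (%, log scale), for Jk1 (left) and the substrate (right) in line A (top) and line B (bottom). The bright column is at a 5'-strand loss of 4 nt in both Jk1 panels and at 2 nt in both substrate panels; cells below the dotted line are 3' overhangs, cells above it 5' overhangs, and grey cells are structures not listed in that table.

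One structure was abundant everywhere. The end without loss on either strand, 0/0, held 4.69% and 2.92% of reads at Jk1, against 5.50% and 4.02% at the substrate. It was lower at Jk1 in both lines, with a difference of -0.956 ± 0.211 points (SD, n = 2 lines), but that gap was within the 1.78 points between the lines at Jk1. Of the 100 combinations of 0 to 9 nt lost from each strand, 0/0 was the only one at 1% or more in all 4 tables. There were 11 such structures at 1% or more in both Jk1 tables and 8 in both substrate tables. Of the 11, the 5 structures 4/1, 4/2, 4/6, 4/8 and 6/2 were listed in neither substrate table, and of the 8, the 3 structures 2/0, 2/2 and 2/4 were listed in neither Jk1 table. Absence was common in general: of all 100 combinations, 33 were listed in neither substrate table and 27 in neither Jk1 table. How reads that could match more than 1 structure were assigned is not given in the sources used here, and its part in these absences was not tested.

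Over all positions, 1820 different structures were listed in at least 1 of the 4 tables, and 135 were listed in all 4. Those 135 carried 57.3% and 39.1% of reads at Jk1, against 37.5% and 35.6% at the substrate. Both Jk1 tables and neither substrate table listed 229 structures, and both substrate tables and neither Jk1 table listed 254. Of 409 structures with a mean share of 0.05% or more, 211 were at least 2-fold apart in the same direction in all 4 pairs of tables (51.6%), 94 higher (23%) and 117 lower (28.6%) at Jk1. Among near ends 62 of 75 structures were that far apart, 28 of them higher and 34 lower at Jk1. Among the remaining ends, whose 5'-ending strand was shorter by at least 10 nt and which are called resected here, 149 of 334 were, 66 of them higher and 83 lower. The most abundant 9 and 25 structures were enough for 50% of reads at Jk1 in lines A and B, against 32 and 40 at the substrate, where line B had the fewest reads. For 90% of reads 202 and 197 structures were needed at Jk1, against 175 and 210 at the substrate, an order that was turned between the lines.

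The share of resected ends, in contrast, did not separate the sites by more than the lines. Resected ends made up 32.4% (95% interval 32.3 to 32.6) of reads in line A and 54.4% (54.2 to 54.6) in line B at Jk1, whereas the substrate had 54.5% (54.3 to 54.7) and 57.4% (57.1 to 57.6). The difference was -22.1 points in line A and -2.96 points in line B. Its sign in line B depended on the cutoff: for losses of 20 nt or more it was -14.8 points in line A and 5.34 points in line B, and for 10 nt or more missing from both strands it was -16.9 and 1.79 points. Fisher's exact test separated the pooled reads of both lines (two-sided, adjusted p = 4.38e-71 or below in both lines), but the lines at Jk1 themselves differed by 22.0 points, more than the smaller difference between sites. The Jk1 table of line A thus stood apart from the other 3. Over all ends the loss from the 5'-ending strand had a median of 4 and 13 nt at Jk1, against 12 and 13 nt at the substrate. Among resected ends alone it was 36 and 83 nt at Jk1, against 39 and 35 nt at the substrate, so there the Jk1 table of line B stood apart. In 10 classes of 5'-strand loss, from 0 to 9 nt up to 160 to 171 nt, the overlap between sites was 76.0% in line A and 81.1% in line B, against 77.8% between lines at Jk1 and 92.7% at the substrate.

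**Figure D3:**
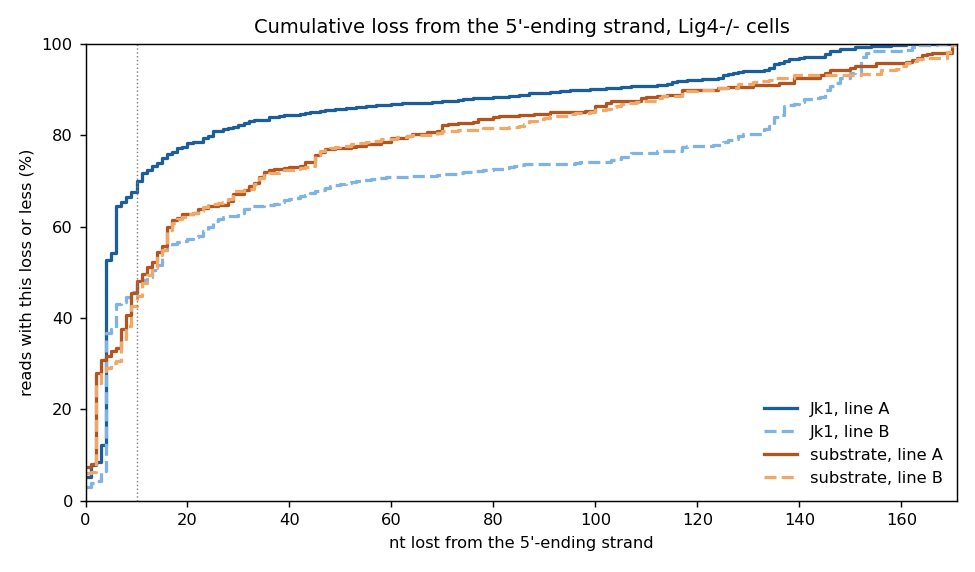
Cumulative share of reads (%) by nt lost from the 5'-ending strand, with 1 step line per table (Jk1 blue, substrate orange; line A solid, line B dashed) and a dotted line at 10 nt. The substrate lines run close together, while Jk1 line A reaches 67.6% of reads at a loss of 9 nt or less and Jk1 line B 45.6%.

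Of 49 shares compared, 46 had an adjusted p under 0.05 in both lines (Fisher's exact test of pooled reads, two-sided, Benjamini-Hochberg over 98 tests), and 31 of those 46 moved the same way in both lines. At this depth the test separates almost any pair of pools, so a share was called only when, in addition, the smaller of both line differences exceeded the larger gap between the lines of a site. By that rule 11 shares were called, 1 higher and 10 lower at Jk1, each with an adjusted p of 6.38e-221 or below in both lines. An exact permutation test over line values could not give a p below 0.333 with 2 lines against 2, or below 0.5 with 2 pairs, so none was used. The 11 shares are not independent of each other, because several count the same reads.

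The share called higher at Jk1 was that of 3' overhangs of 1 to 4 nt. They held 46.8% and 45.3% of reads at Jk1, against 41.2% and 38.8% at the substrate, a difference of 6.01 ± 0.603 points (SD, n = 2 lines). Within the class the lengths ran in opposite directions. Overhangs of exactly 4 nt held 13.5% and 13.3% at Jk1, against 4.34% and 3.94% at the substrate, and those of 3 nt held 9.96% and 10.3%, against 7.13% and 5.26%. Overhangs of 1 nt held 12.0% and 9.89% at Jk1, against 15.3% and 14.5% at the substrate, and those of 2 nt held 11.3% and 11.8%, against 14.4% and 15.2%. The class was not called when each structure was counted once or when the most abundant structure of each table was left out, with differences of 4.67 and 12.5 points. The structure left out was the blunt end 4/4 at Jk1 in line A, but a 3' overhang of this class in the other tables. That difference was 18.1 points in line A and 6.95 points in line B.

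3' overhangs of 10 to 19 nt were rarer at Jk1. They held 1.19% (95% interval 1.15 to 1.23) and 1.81% of reads at Jk1, against 7.07% and 5.15% at the substrate, a difference of -4.61 ± 1.79 points (SD, n = 2 lines). Taken among resected ends, which hold all overhangs of that length, they made up 3.68% and 3.33% at Jk1, against 12.98% and 8.98% at the substrate. All Jk1 values were below all substrate values, and the call held in each of 6 other settings, over which the difference ran from -5.34 to -3.51 points. 3' overhangs of 20 nt or more were not called, at 1.04% and 1.75% of reads at Jk1, against 3.32% and 1.54% at the substrate, with opposite signs in the lines. At the substrate the leading structure of 10 to 19 nt was the 16-nt 3' overhang 16/0, which was not listed at Jk1 and held 1.71% and 1.34% of reads at the substrate. In the loss class of 160 to 171 nt at Jk1 all listed ends were 3' overhangs, but the class held 0.116% and 1.61% of reads.

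Ends resected on the 5'-ending strand while the 3'-ending strand kept within 9 nt of its full length were rarer at Jk1, at 3.86% and 3.53% of reads, against 9.09% and 8.28% at the substrate. The difference was -4.995 ± 0.336 points (SD, n = 2 lines). With no loss at all on the 3'-ending strand they held 0.0466% and 0.00262% at Jk1, against 1.97% and 1.55% at the substrate. That is 147 and 8 reads at Jk1, and 16/0 alone held 87.2% and 86.7% of this class at the substrate. Without the leading structure of each table the difference was -0.230 points. When each structure was counted once, both differences shrank, to -1.78 and -0.511 points, and neither was called.

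The mirror class, with 10 nt or more missing from the 3'-ending strand and under 10 nt from the 5'-ending strand, held 1.42% and 1.65% of reads at Jk1, against 2.79% and 4.31% at the substrate. It was lower at Jk1 in both lines but not called, since the smaller difference, -1.37 points, was within the 1.52 points between the substrate lines. A part of it was called, the near ends with a 5' overhang of 10 nt or more. Such overhangs made up 0.186% and 0.0741% of near ends at Jk1, against 2.82% and 4.24% at the substrate, a difference of -3.40 ± 1.08 points (SD, n = 2 lines). The call held in each of 6 other settings, but those that changed the window could not alter a share of near ends. The difference was -1.78 points without the leading structure of the class in each table. With each structure counted once it was -21.9 points. The structure 0/16, with a 5' overhang of 16 nt, held 0.595% and 0.901% of reads at the substrate and was not listed at Jk1. The 5' overhang 0/7 held 0.000634% of Jk1 reads in line A and was not listed in line B, against 0.530% and 0.726% at the substrate. Both were chosen after their values were seen. Shorter 5' overhangs, of 5 to 9 nt, made up 1.49% and 2.00% of near ends at Jk1, against 3.55% and 4.79% at the substrate, a called difference that was lost when each structure was counted once (-2.68 points).

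Among resected ends, blunt ends made up 8.32% and 8.24% at Jk1, against 15.3% and 13.7% at the substrate, a difference of -6.27 ± 1.07 points (SD, n = 2 lines). With losses limited to 150 nt or less the difference was -2.93 points and was not called. With each structure counted once it was not called either, at 0.590 points in line A and -2.82 points in line B. Single blunt ends went both ways. The blunt end 15/15 held 0.252% and 1.21% at Jk1 and was not listed at the substrate. For 11/11 the difference was 0.0837 points in line A and -0.559 points in line B. The blunt ends 12/12 and 170/170 were lower at Jk1 in both lines. The first held 0.185% and 0.164% of reads at Jk1, against 0.767% and 1.18% at the substrate. The second was not listed at Jk1 and held 1.98% and 0.00711% at the substrate, so it was abundant in line A alone.

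Over all ends the broad classes were alike. 3' overhangs held 58.0% and 58.2% of reads at Jk1, against 61.6% and 53.2% at the substrate. 5' overhangs held 20.4% and 26.0% at Jk1, against 19.2% and 27.6% at the substrate. Blunt ends held 21.6% and 15.8% at Jk1, against 19.2% in both lines at the substrate. For all 3 classes the difference between sites had opposite signs in the lines. 5' overhangs among resected ends were higher at Jk1 in both lines, at 34.0% and 35.5%, against 20.4% and 30.2% at the substrate, but the smaller difference, 5.29 points, was within the 9.79 points between the substrate lines.

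**Figure D4:**
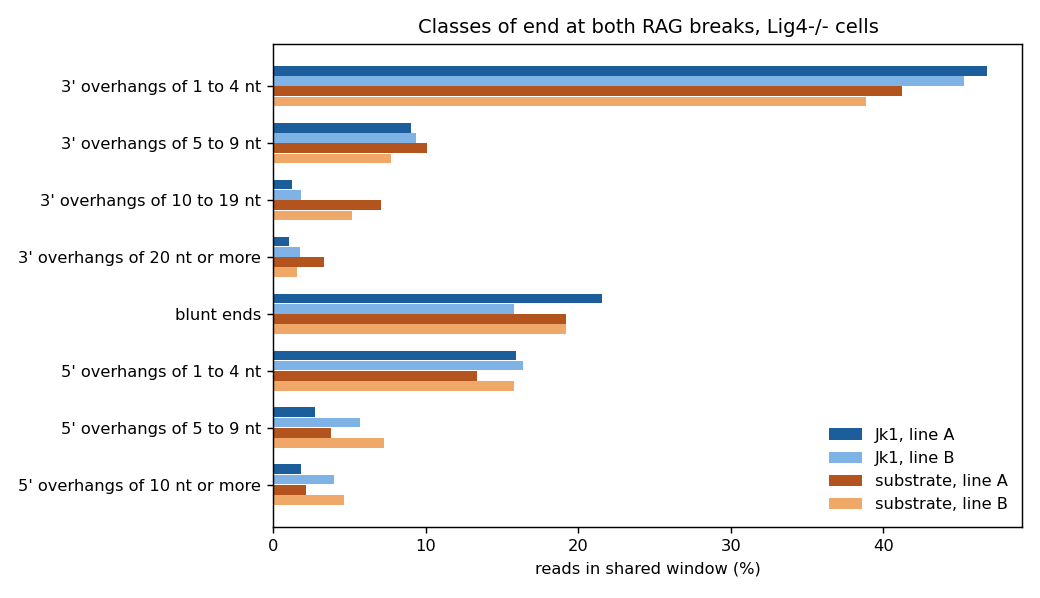
Share of reads in the shared window (%) for 8 classes of end by overhang type and length, with bars for Jk1 line A, Jk1 line B, substrate line A and substrate line B from top to bottom in each class. The 3' overhangs of 10 to 19 nt are at 1.19% and 1.81% at Jk1, against 7.07% and 5.15% at the substrate, while the bars of blunt ends at Jk1 lie on either side of those at the substrate.

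Among classes of distance, 2 were called, losses of 10 to 19 nt and losses of 160 to 171 nt, the latter given further below. A 5'-strand loss of 10 to 19 nt held 9.93% and 11.2% of reads at Jk1, against 17.2% and 19.5% at the substrate, a difference of -7.79 ± 0.717 points (SD, n = 2 lines). With each structure counted once the call was lost, at -1.26 points, and the sign turned in line A (0.957 points, with -3.48 points in line B). A single position, 16 nt, held 0.860% and 0.780% at Jk1, against 4.24% and 4.27% at the substrate. At 15 nt the order was turned in line B alone, at 1.10% and 3.22% at Jk1, against 1.18% and 1.05% at the substrate. There the blunt end 15/15 held 0.252% and 1.21% at Jk1 and was not listed at the substrate. The 5'-ending strand had lost nothing in 5.16% and 3.03% of reads at Jk1, against 7.49% and 6.18% at the substrate, a called difference that failed in 3 of 6 other settings.

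Far from the break the stops also differed between the sites, and the lines of a site were less alike there. For resected ends, 5'-strand positions overlapped by 46.7% between sites in line A and 44.1% in line B, against 61.1% between lines at Jk1 and 64.8% at the substrate. Whole structures overlapped by 13.1% and 9.83% between sites, against 34.7% between lines at Jk1 and 37.2% at the substrate. Losses of 120 to 139 nt held 4.62% and 9.36% of reads at Jk1, against 2.70% and 3.47% at the substrate, and were not called. Losses of 140 to 159 nt held 3.06% and 11.5% at Jk1, against 3.41% and 1.42% at the substrate, so the sign differed between the lines. The 4-nt 5' overhang 135/139 held 0.882% and 1.32% of reads at Jk1, and the 4-nt 5' overhang 125/129 held 0.435% and 0.569%. Neither was listed at the substrate. In the class of 120 to 139 nt, 5' overhangs made up 73.5% and 77.5% of reads at Jk1, against 47.9% and 73.7% at the substrate. In the class of 140 to 159 nt, 3' overhangs made up 73.5% and 72.0% at Jk1, against 57.6% and 29.7% at the substrate. In the class of 120 to 139 nt, 3' overhangs made up 26.5% and 22.5% at Jk1, against 0.836% and 26.1% at the substrate. The share of 3' overhangs was thus higher in the farther class in all 4 tables, with the smallest rise at the substrate in line B.

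Several far structures were abundant in a single table. The blunt end 145/145 held 1.19% of Jk1 reads in line B and was not listed in the other 3 tables. At the substrate the 3-nt 5' overhang 70/73 held 1.18% in line A and 0.00316% in line B, and was not listed at Jk1. The stop at 137 nt held 0.389% and 1.98% of reads at Jk1 and was not listed at the substrate, so it repeated in both lines at unequal height.

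Some far substrate stops were repeated in both lines and others were not. A loss of 170 nt held 0.000952% and 0.000656% of reads at Jk1, against 1.98% and 1.70% at the substrate, although its blunt structure 170/170 was abundant in line A alone. A loss of 169 nt was not listed at Jk1 and held 0.00657% and 1.25% at the substrate. Losses of 160 to 171 nt together held 0.116% and 1.61% at Jk1, against 4.07% and 5.48% at the substrate, a called difference. Without the leading structure of the class in each table the difference, -2.96 points, was not called. The class lies at the end of the range listed at Jk1, where the largest loss was 181 and 171 nt, against 206 and 207 nt at the substrate. What part this had in the difference was not tested. A loss of 45 nt held 0.131% and 0.548% at Jk1, against 1.64% and 2.48% at the substrate. Its leading structure, the 10-nt 3' overhang 45/35, held 0.000634% in line A and was not listed in line B at Jk1, against 1.09% and 1.05% at the substrate.

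**Figure D5:**
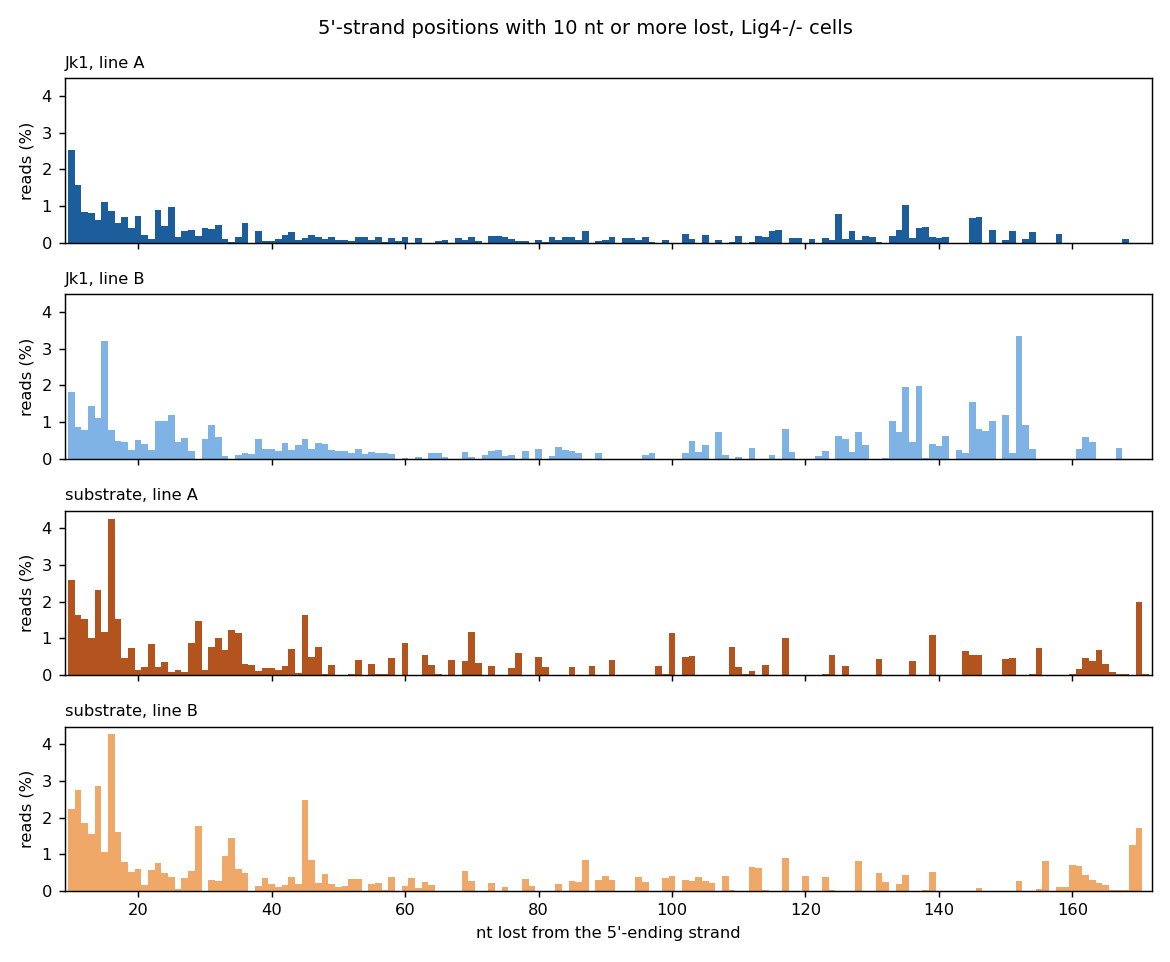
Share of reads in the shared window (%) at each 5'-strand loss from 10 to 171 nt, with 1 panel per table (Jk1 line A, Jk1 line B, substrate line A and substrate line B from top to bottom) on 1 scale. The substrate panels share peaks at 16, 45 and 170 nt, although the peak at 169 nt is in line B alone, and the stops of Jk1 between 120 and 159 nt are higher in line B than in line A.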

How the data were processed

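The deposited tables give, for each end structure, a count of reads with a position and an overhang. The read counts are whole numbers without normalisation, as deposited. Each table is named for a group, has no library column and was read as the authors' pool of that group's libraries. Not given in the sources used here are the build, the alignment, any filter on reads, and how a read that could match more than 1 structure was assigned. Column meanings were read from the data. Positive overhangs were taken as 3' overhangs because the KpnI control, known to leave a 4-nt 3' overhang, had 99.2% of its reads at the value 4. Positions are not genome coordinates, so none are printed.

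Shares were taken in pandas 2.3.3 with Python 3.11.15 and numpy 2.4.6, tested with scipy 1.17.1, adjusted with statsmodels 0.14.6 and drawn with matplotlib 3.10.9. Total reads ran from 128122 to 330683 a table. The members, classes and thresholds were chosen with earlier results of these data known. Structures were named by rank: the 5 highest in each table, the 5 largest differences in each direction that held in both lines, the 5 highest among resected ends, and the end without loss. Structures named as leaders of a class, and those of the near combinations at 1% or more, were added after their values were seen. Alternatives covered the window, the weight of a structure, the fewest reads, the thresholds and each line left out. The calculation was tested on simulated data.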

Additional observations from a re-analysis of the deposited data

Results flagged for a closer look

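Among the main shares and the median loss screened here, the difference between the sites, Jk1 minus substrate, had opposite signs in the lines for 5 measures. That is what marked them. The other shares were not screened, and of all 49 compared, 31 moved the same way in both lines. Whether the lines differ was not tested, since each line has 1 pooled table a site. The share of 3' overhangs differed by -3.62 points in line A and 4.96 points in line B. The share of 5' overhangs differed by 1.23 points in line A and -1.56 points in line B, and that of blunt ends by 2.39 and -3.40 points. The share of 3' overhangs among near ends differed by -0.299 points in line A, where Jk1 had 58.2% and the substrate 58.5%, and by 11.05 points in line B, where Jk1 had 60.5% and the substrate 49.4%. The median 5'-strand loss of resected ends differed by -3 nt in line A and 48 nt in line B.

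Reads with a 5'-strand loss beyond the shared window of 171 nt were also marked, because they exceed what a count of 0 allows. They made up 0.00539% of Jk1 reads in line A (17 reads) and none in line B, against 3.36% of substrate reads in line A and 1.19% in line B. For the substrate most of them lay on a few structures. In line A the 7-nt 5' overhang 176/183 held 28.6% of these reads and the 23-nt 3' overhang 181/158 held 24.4%. In line B the 20-nt 3' overhang 181/161 held 47.6% and the 42-nt 3' overhang 176/134 held 43.2%.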

How the results depend on the processing

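Read counts were large, with 46 of 49 shares past the Fisher threshold in both lines, but reads may repeat a molecule, so the number of independent ends is unknown. The comparison is limited by 2 lines a site and by libraries pooled in each table. No paired analysis was possible because the tables pool the numbered libraries of each group and their columns carry no library number; the sites were compared within each line instead. Leaving out a line gives the other line's difference, without a call. Of 128 values recomputed under the other settings, 102 counted as unchanged. Shares did so when direction and call were kept, and counts of features when they stayed within a fixed fold. The median loss did so within the SD of its line differences, a wide span, since these were -3 nt and 48 nt. Window settings that cannot change a share of near ends are among the 102. With each structure counted once, the uncalled differences in resected ends (4.39 points), 3' overhangs (-0.149), 5' overhangs (0.486) and ends without loss (0.00877) changed sign. Under the same setting calls were lost for 3' overhangs of 1 to 4 nt (4.67), 5' overhangs of 5 to 9 nt of near ends (-2.68), blunt ends among resected ends (-1.12), the 5'-ending strand without loss (-1.39), loss from the 5'-ending strand only (-1.78), that class with an intact 3'-ending strand (-0.511) and losses of 10 to 19 nt (-1.26). Without the most abundant structure of each table, the difference in 5' overhangs turned to 0.193 points, and calls were lost for 3' overhangs of 1 to 4 nt (12.5) and the 5'-ending strand without loss (-2.92). That last call was also lost over the whole deposited window (-2.58). With losses up to 150 nt, the uncalled differences turned for 3' overhangs (-2.16), 5' overhangs (0.928) and blunt ends (1.23). Under that limit 5' overhangs of resected ends became called (12.2), and blunt ends among resected ends did not stay called (-2.93). With ends of 1 nt difference called blunt, the difference in 5' overhangs was 0.334 points, and 3' overhangs of near ends became called (11.3). Without the leading structure of the class in each table, losses of 160 to 171 nt were not called (-2.96). With a mean share of 0.01% or more, 387 structures were at least 2-fold apart, from a larger set than the 409 structures above. With 0.2% or more, 56 structures and 34 5'-strand positions were, from smaller sets than those 409 structures and 150 positions. Percentages of these sets are not given here, so the counts do not show whether the share that differed rose or fell. The causes were not tested, beyond fewer or more features entering those counts. The calculations on classes, and those without a leading structure, were added after seeing the data.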
